A study of Arabidopsis thaliana with 24 samples.

Results

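Nuclear genes for ribosomal proteins of the chloroplast and mitochondrion were described across 3 zones of 3 Arabidopsis thaliana root lines. The set holds 29 of the 32619 genes in the deposited tables. It was taken by gene title: titles with "ribosomal protein" together with 50S, 30S, chloroplast, plastid or mitochondrial, without 60S or 40S, for single nuclear genes. The same 29 genes were found in all 3 tables. Genes whose titles lack this wording are not in the set. It is therefore not the whole class of organelle ribosomal protein genes, and its sums are not totals for the class. By title, 5 encode plastid proteins, 5 encode mitochondrial proteins, and 19 are named 50S or 30S only, with no organelle in the title. Large-subunit proteins account for 18 and small-subunit proteins for 11. They lie on all 5 chromosomes, with 7, 4, 8, 2 and 8 genes on chromosomes 1 to 5.

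Plastids and mitochondria descend from bacteria and keep ribosomes of bacterial type, with a 50S and a 30S subunit in the plastid. Some plastid ribosomal proteins are still encoded in the organelle genome, but most organelle ribosomal proteins are made in the cytosol from nuclear genes and imported. In roots the plastids are not green, yet they make fatty acids, amino acids and hormone precursors, and loss of many plastid ribosomal proteins is lethal to the embryo, which is why several members carry the symbol EMB (embryo defective).

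Protoplasts of Col-0 roots from 3 GFP lines were sorted by GFP brightness into the zones Proximal, Medial and Distal, and total RNA was sequenced in 24 libraries. PUB25 and SPT were labelled root meristem, each zone with 3 libraries, and TMO5 was labelled root meristematic xylem, each zone with 2. The labels give neither the reporter construct of a line nor the brightness of each zone, so zone names are labels only, and they do not say whether libraries came from separate plants. The values are FPKM, fragment numbers scaled to transcript length and library size, 1 for each gene in a zone, so no error or replicate spread can be given and depth is unknown. Changes are differences of log2(FPKM + 1) computed here, and a gene is said to have risen or fallen only where the authors' deposited table lists a q value (their adjusted p) below 0.05. In such bulk RNA, fewer cells of a type and less RNA per cell cannot be told apart.

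The promoters of 3 members are shown, picked for their motif matches. AT3G59650 and EMB3113 fell from Proximal to Distal in the SPT line by the authors' deposited table and hold both motif kinds. AT4G17560, L19-1, is the member with the most motif matches. All 3 windows are free of other annotated genes. The 3 were chosen after their values were seen and do not stand for the whole set. Each is the 250 bases before the RefSeq gene start on TAIR10.1, read 5′ to 3′ on the gene's strand. Capitals mark the telo box (AAACCCTA or its reverse complement) and site II letters (TGGGCC or TGGGCT or their reverse complements), elements known from cytosolic ribosomal protein promoters of plants. TGGGCC and its reverse complement overlap in the run TGGGCCCA.
AT3G59650 (chr3:22032879-22033128, plus strand): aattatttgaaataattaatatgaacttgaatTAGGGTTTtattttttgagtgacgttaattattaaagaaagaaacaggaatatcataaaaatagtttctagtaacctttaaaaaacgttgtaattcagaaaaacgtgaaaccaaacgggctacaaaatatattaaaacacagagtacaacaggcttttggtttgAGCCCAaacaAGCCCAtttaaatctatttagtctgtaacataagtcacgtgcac
EMB3113 (chr2:14302497-14302746, minus strand): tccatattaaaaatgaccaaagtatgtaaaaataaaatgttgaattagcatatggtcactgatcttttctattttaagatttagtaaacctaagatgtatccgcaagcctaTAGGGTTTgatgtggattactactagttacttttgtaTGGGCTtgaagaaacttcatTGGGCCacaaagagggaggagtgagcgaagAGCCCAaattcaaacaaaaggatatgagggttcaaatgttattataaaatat
AT4G17560, L19-1 (chr4:9779974-9780223, plus strand): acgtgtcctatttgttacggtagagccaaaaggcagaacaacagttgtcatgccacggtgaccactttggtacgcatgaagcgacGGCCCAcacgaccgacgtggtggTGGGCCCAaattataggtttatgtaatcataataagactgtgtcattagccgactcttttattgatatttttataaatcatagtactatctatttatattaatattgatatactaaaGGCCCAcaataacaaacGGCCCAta

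Site II letters stood in the 250 bases before 12 of 29 members (41.4%), against 19.2% of 27443 protein-coding nuclear genes and 70.1% of 147 cytosolic ribosomal protein genes. The telo box stood before 4 members (13.8%), against 4.49% and 22.4%. Both kinds stood before EMB3113, PSRP4 and AT3G59650, or 10.3% of members, against 1.36% and 17%. Among the 19 members that fell from Proximal to Distal in SPT by the authors' deposited table, where 24.1% of genes tested fell, 7 held site II letters, as did 5 of the 10 others. A match is a description of the letters and not a binding site. Windows of all sets were taken without regard to neighbouring genes. Among members with site II letters, those of AT1G16870, AT1G29070, AT1G64510, RPS14, PSRP4 and AT5G16200 overlap another annotated gene. Among members with a telo box, those of PSRP4 and EMB3126 do.

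**Figure D1:**
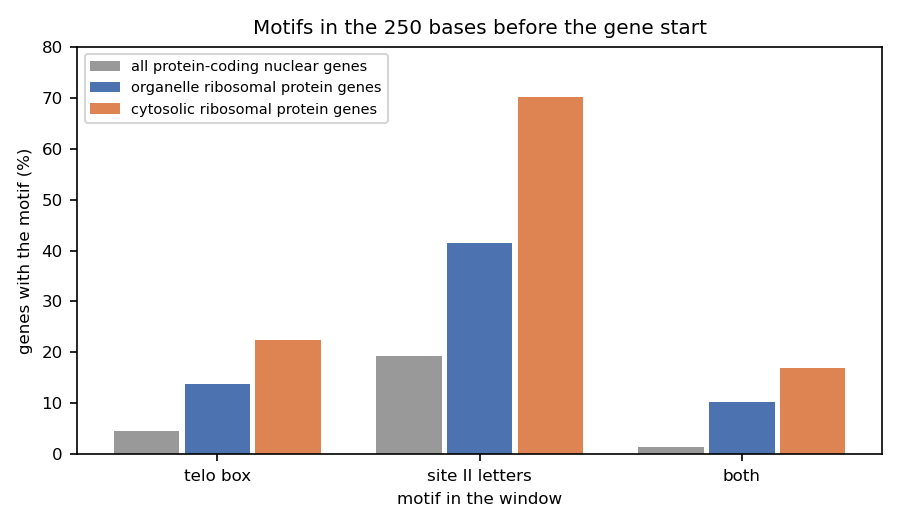
Percentage of genes with each motif (y axis) in the 250 bases before the gene start, for all protein-coding nuclear genes, the 29 organelle ribosomal protein genes and 147 cytosolic ribosomal protein genes. The organelle genes stand between the other sets for each motif, with site II letters at 41.4% of members.

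The most abundant member was RPL3P, titled plastid L3, at a mean of 63.0 FPKM over the 9 values. L3 is a protein of the peptidyl transferase region of bacterial ribosomes. The organelle of RPL3P is taken from its title and was not tested. AT3G59650, a mitochondrial L51/S25 family protein, followed at 55.0 and AT3G01740, mitochondrial L37, at 45.6. The next were AT1G16870, the mitochondrial S29-like protein, at 31.0, MRPL11 at 25.7 and EMB3105, a 50S L18/L5e family protein, at 25.2 FPKM. This order pools lines of unlike level and did not hold in each zone: in SPT Medial and Distal cells PRPS20 was highest, at 33.3 and 15.4 FPKM. In Proximal cells the 5 mitochondrial members held 153 of the 494 summed FPKM of the set in PUB25, 166 of 612 in SPT and 319 of 778 in TMO5. The 5 plastid-titled members held 90.8, 159 and 165, of which RPL3P alone held 58.8, 54.3 and 109.6. Only PSRP3/1 in the TMO5 line, at 0.468, 0.132 and 0.677 FPKM, averaged under 1 FPKM in any line, which left 28 members there for folds.

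Over the zones Proximal, Medial and Distal, the set summed to 494, 440 and 516 FPKM in PUB25. The sums were 612, 315 and 202 in SPT and 778, 723 and 578 in TMO5. The SPT line had the widest span between zones, and its Distal sum was the lowest of the 9.

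**Figure D2:**
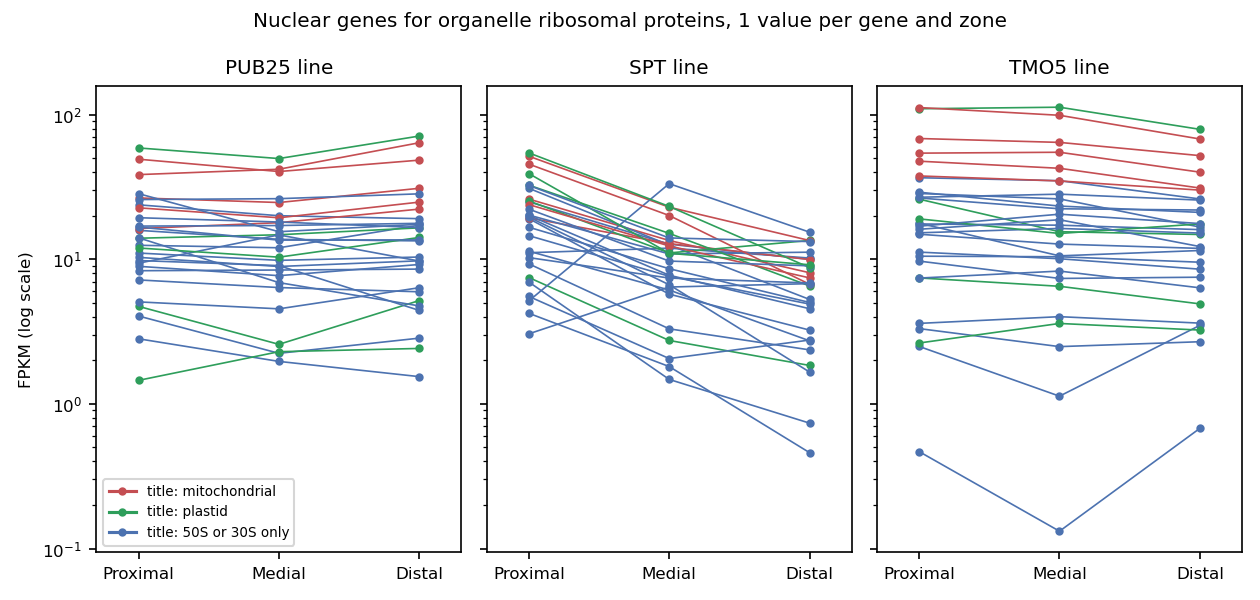
FPKM (log axis) of the 29 members in the 3 zones of each line, 1 point per gene and zone, joined by gene and coloured by the organelle in the title. Most lines slope down in the SPT panel, where the summed FPKM went from 612 to 202, and lie nearly level in the others.

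Of the 9 zone comparisons, Distal against Proximal in the SPT line had the lowest median for the set. The authors' deposited table has 19 of 29 members falling and none rising, where 24.1% of all genes tested there fell and 25.8% rose. The median change of the members was -1.58 on the log2(FPKM + 1) scale, against 0.06 over all genes that averaged 1 FPKM or more. Lower levels in Distal cells were listed for 27 of 29 members (93.1%), against 47.8% of all genes. Of the members 21 were at least 2-fold lower, as 21.8% of all genes were, and 1 was at least 2-fold higher, as 24.3% were.

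By the authors' deposited table all 5 mitochondrial members fell. AT3G59650 stood at 45.4, 20.0 and 6.71 FPKM over the zones in that order, a change of -2.59 on the log2(FPKM + 1) scale (q = 0.0295 in the authors' deposited table). AT3G01740 went from 51.5 through 22.9 to 13.5 FPKM, a change of -1.86 (q = 0.000359, which the authors' deposited table also lists as its smallest for SPT). Both dropped at each step. AT1G16870 went from 26.0 to 8.06, MRPL11 from 23.9 to 7.43 and RPS14, the small-subunit protein S14, from 19.3 to 9.94 FPKM, and the authors' deposited table calls each of these.

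By the authors' deposited table, of 5 plastid-titled members 4 fell. RPL3P stood at 54.3, 23.2 and 8.75 FPKM, a change of -2.50 (q = 0.000359 in the authors' deposited table). PSRP5 and PSRP6, plastid-specific proteins of the large subunit, went from 32.5 through 15.1 to 6.53 and from 39.1 through 11.0 to 9.15 FPKM, and PRPL11, plastid L11 of the factor-binding stalk base, from 7.47 to 1.84 FPKM. The authors' deposited table calls all 3. PSRP4, a plastid-specific small-subunit protein, stood at 25.3, 11.0 and 13.5 FPKM and was not called (q = 0.0528 in the authors' deposited table).

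Of the members named 50S or 30S only, 10 of 19 fell in the authors' deposited table. The steepest was AT5G24490, a putative 30S protein, at 19.5, 6.66 and 1.66 FPKM, a change of -2.95 (q = 0.000359 in the authors' deposited table). EMB3105 went from 30.9 through 12.5 to 5.27 FPKM and RPL21C, 50S L21, from 19.1 through 5.73 to 3.23 FPKM, changes of -2.35 and -2.25. Both had q = 0.000359 in the authors' deposited table. EMB3113, small-subunit S5, and RPL24 (also called SVR8), an L24 protein whose bacterial counterpart starts large-subunit assembly, also fell by the authors' deposited table, from 24.9 to 9.98 and from 32.4 to 13.2 FPKM. By subunit, 12 of 18 large-subunit and 7 of 11 small-subunit members fell in the authors' deposited table, with medians of -1.78 and -1.24 on the log2(FPKM + 1) scale.

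Of the 10 members not called, 8 were still lower in Distal cells, as 47.8% of all genes were. EMB3126, 50S L1, went from 16.6 to 5.02 FPKM (q = 0.0534 in the authors' deposited table) and AT2G43030, 50S L3-1, from 11.4 to 2.73 FPKM (q = 0.260 there). AT1G29070, 50S L34, stood level at 11.1, 11.9 and 10.2 FPKM. Only PRPS20 and AT5G16200 were higher. PRPS20, small-subunit S20, stood at 5.14, 33.3 and 15.4 FPKM, and AT5G16200, a 50S-related protein, at 3.05, 6.42 and 6.77 FPKM, with q values of 0.488 and 0.103 in the authors' deposited table.

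**Figure D3:**
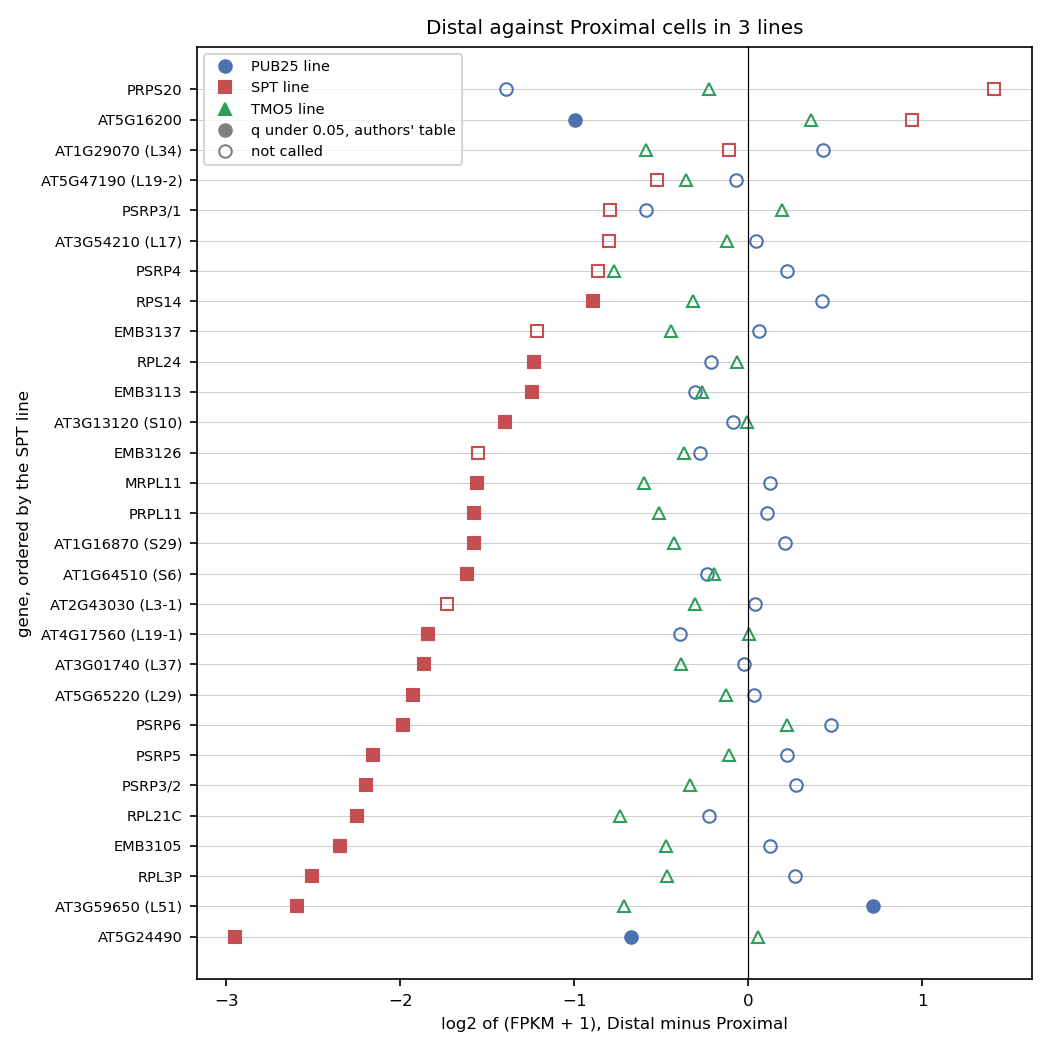
Distal minus Proximal change of each member on the log2(FPKM + 1) scale (x axis) in the 3 lines, genes ordered by the SPT line; filled symbols are called in the authors' deposited table. The SPT symbols run from -2.95 to 1.41 with 19 filled, and none of the TMO5 symbols is filled.

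Levels of most members went down in steps in the SPT line. Proximal was above Medial and Medial above Distal for 23 of 29 members (79.3%), against 33.3% of all genes. In absolute size, up or down, the first step was the larger in 22 of 29. These include PRPS20 and AT5G16200, which were higher in Medial than in Proximal cells. From Proximal to Medial the authors' deposited table has 18 members falling and none rising, where 18.5% of genes tested went each way, and their median was -1.09 on the log2(FPKM + 1) scale. At least 2-fold lower were 16 members and at least 2-fold higher was 1, against 12.4% and 17.4% of all genes. PSRP6 and PSRP3/2, a plastid-specific small-subunit protein that went from 6.96 to 1.48 FPKM, had the largest falls, of -1.74 and -1.68. From Medial to Distal the authors' deposited table has 4 members falling, where 11.2% of genes tested fell, and none rising, where 12.8% rose: AT5G24490, RPL3P, EMB3105 and AT3G01740. The median there was -0.55, 6 members were at least 2-fold lower and none was 2-fold higher, against 7.16% and 8.64% of all genes.

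**Figure D4:**
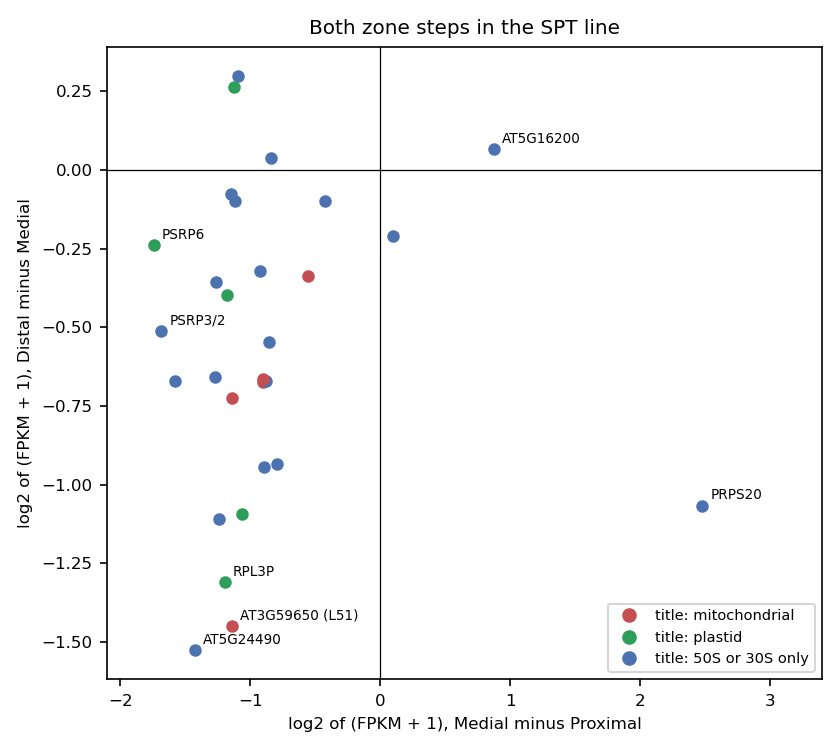
Change of each member in the SPT line from Proximal to Medial (x axis) and Medial to Distal (y axis), both on the log2(FPKM + 1) scale, coloured by title. Most points lie left of and below 0, and PRPS20 stands alone at 2.48 on the first step.

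In PUB25 few members were called between zones. From Proximal to Distal the authors' deposited table has 1 member rising and 2 falling, where 20% and 17.4% of genes tested did, and the median was 0.04 on the log2(FPKM + 1) scale. AT3G59650 stood at 38.4, 41.9 and 63.8 FPKM, a rise of 0.72 (q = 0.00820 in the authors' deposited table). AT5G16200 went from 9.79 through 9.03 to 4.42 FPKM, and AT5G24490 from 28.4 through 15.5 to 17.4 FPKM, with q values of 0.00709 and 0.000407 in the authors' deposited table. AT3G59650 thus rose in PUB25 and fell in SPT by the authors' deposited table.

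PRPS20 stood at 14.1, 6.89 and 4.75 FPKM in the PUB25 line, an uncalled change of -1.39 and the only one of at least 2-fold, where 9.46% of all genes were that much higher and 6.98% lower. From Proximal to Medial the authors' deposited table has 2 members falling, AT5G24490 and AT4G17560 (4.05 to 2.24 FPKM), and none rising, where 12.1% of genes tested fell and 15% rose. From Medial to Distal PRPL11 (2.58 to 5.18 FPKM), AT3G59650 and RPL3P (49.6 to 71.0 FPKM) rose and AT5G16200 fell in the authors' deposited table, where 11.5% of genes tested went each way. All 5 plastid-titled and all 5 mitochondrial members were higher in Distal than in Medial cells, of which the authors' deposited table calls 3. The other 19 members split into 11 higher and 8 lower, with a median of 0.02 on the log2(FPKM + 1) scale, and 8243 of 16605 genes were higher. These classes follow title wording only. Among the 19, RefSeq synonyms name RPL21C, PRPS20, RPL24, PSRP3/1, EMB3126 and PSRP3/2 as plastid or chloroplast proteins. For this step RPL21C, PRPS20, RPL24 and PSRP3/1 had negative changes, of -0.03, -0.46, -0.12 and -0.22. EMB3126 and PSRP3/2 had positive ones, of 0.005 and 0.41. No member differed 2-fold in these pairs on the log2(FPKM + 1) scale, where 7.19% of all genes were higher and 2.87% lower in Medial than Proximal, and 3.25% and 3.06% in Distal than Medial.

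In the TMO5 line no member was called in any zone pair of the authors' deposited table. That table called few genes in this line of 2 libraries per zone: 0.274% of genes tested fell and 1.29% rose between Proximal and Distal cells, 0.195% and 0.0279% between Proximal and Medial, and 0.00668% and 2.18% between Medial and Distal. The median member change between Proximal and Distal cells was -0.32 on the log2(FPKM + 1) scale, with a range from -0.77 to 0.36. Distal levels were lower for 24 of 28 members (85.7%), against 49.9% of all genes. No member was 2-fold higher or lower, against 7.83% and 1.2% of all genes, nor in Medial against Proximal, where 0.584% and 2.54% were. From Medial to Distal AT5G16200 was 2-fold higher (1.13 to 3.49 FPKM, not called), as 10.3% of all genes were, and no member was 2-fold lower, as 0.471% were.

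RPL3P stood at 109.6, 112 and 79.0 FPKM there, and AT3G59650 at 112, 98.8 and 67.7 FPKM, the lowest q value among members being 0.465 for AT3G59650 in the authors' deposited table. Both were lowest in Distal cells. PSRP4 (26.0 to 14.8 FPKM) and RPL21C (28.5 to 16.7 FPKM) had the largest differences. The 4 members not lower in Distal cells were AT5G16200, PSRP6, AT5G24490 and AT4G17560, at most 0.36 higher.

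Close copies had unlike values. The L19 genes share at most 41 exon bases in a row. In the SPT line L19-1 went from 4.23 through 1.81 to 0.460 FPKM and fell (q = 0.0130 in the authors' deposited table), whereas L19-2 stood at 10.3, 7.40 and 6.85 FPKM (q = 0.230 there). PSRP3/2 went from 6.96 to 0.736 FPKM and fell by that table, and PSRP3/1, with at most 33 shared bases, went from 5.53 to 2.76 FPKM (q = 0.219 in the authors' deposited table). The difference between copies was not tested.

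PSRP6 was high in the SPT line alone. It stood at 39.1, 11.0 and 9.15 FPKM in the SPT line, at 1.45, 2.29 and 2.42 FPKM in the PUB25 line and at 2.63, 3.60 and 3.24 FPKM in the TMO5 line. Every SPT value was above every value of the other lines. Levels were not tested between lines.

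Some values rest on wide loci. The deposited locus of 11 members also covers another coding gene, and 1 member, AT3G54210, stands at 2 loci, so that 12 in all may share reads with another gene or row. PRPS20 lies in a locus with 2 other coding genes, and AT3G59650, AT5G24490 and EMB3105 each share theirs with 1. Of the 19 members that fell in the SPT line 6 were among these, as were 6 of the 10 not called.

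AT3G54210, 50S L17, was listed with unlike values at its loci. Its row in the deposited table carried the first locus in the PUB25 line and the second in the SPT and TMO5 lines. In the SPT line the second locus stood at 20.2, 10.9 and 11.2 FPKM and the first at 5.04, 7.96 and 19.2 FPKM, so that Proximal cells were highest at one locus and lowest at the other.

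Other genes of organelle gene expression, from lists chosen with earlier results known, were also lower in SPT Distal cells. The authors' deposited table shows that 5 of 9 plastid translation factors, 4 of 6 plastid ribosome assembly genes (AT5G24490 among them), 5 of 6 organelle RNA polymerase and sigma factor genes, 8 of 10 plastid polymerase associated proteins and 4 of 4 mitochondrial translation factors fell, and none rose. Medians ran from -2.45 for the assembly list to -1.32 for plastid translation factors on the log2(FPKM + 1) scale. The mitochondrial elongation factor Tu gene AT4G02930 stood at 146, 62.2 and 31.7 FPKM there and at 78.7, 94.6 and 146 FPKM in the PUB25 line, where it rose in the authors' deposited table. The 16 ribosomal protein rows of the plastid genome were listed at 0 in every zone. Whether reads were counted for these rows was not tested, so the 0 values are not read as absent transcripts. The 6 photosynthesis genes, which are nuclear, reached at most 3.07 FPKM.

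Cytosolic ribosomal protein genes were compared with the organelle set. From Proximal to Distal of PUB25 the authors' deposited table has 118 of 147 rising and none falling, where 20% and 17.4% of genes tested did. The cytosolic median was 0.60 on the log2(FPKM + 1) scale against 0.04 for organelle members. For SPT the authors' deposited table has 132 of 147 falling, where 24.1% of genes tested fell, with a median of -2.21 against -1.58. The TMO5 medians were -0.52 and -0.32, with no cytosolic gene called in the authors' deposited table, where 0.274% of genes tested fell and 1.29% rose. The difference between the sets was not tested.

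**Figure D5:**
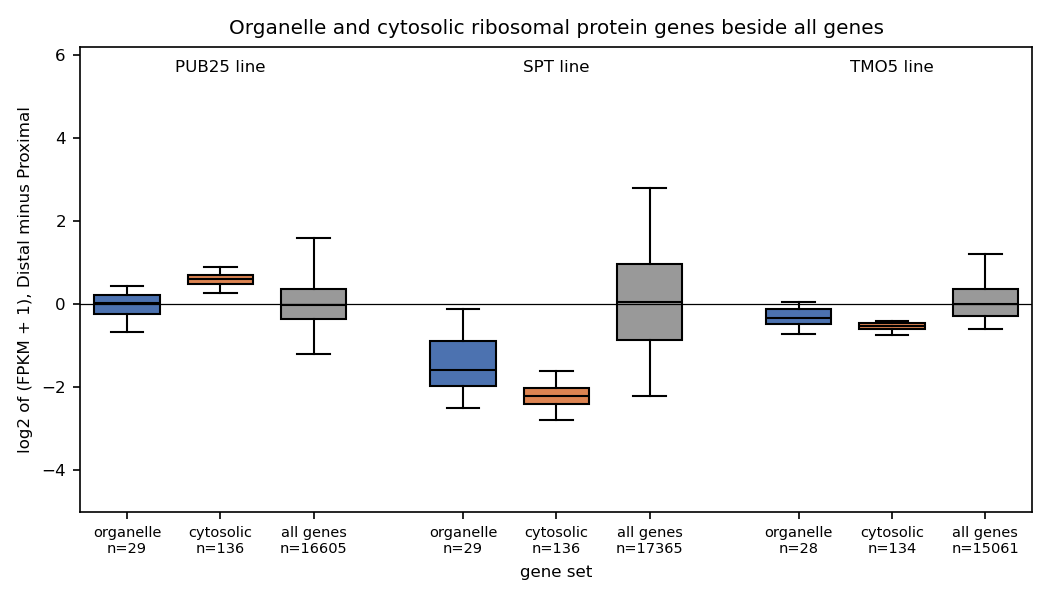
Distal minus Proximal change on the log2(FPKM + 1) scale (y axis) of organelle ribosomal protein genes, cytosolic ribosomal protein genes and all genes averaging 1 FPKM or more in each line. Boxes run from the lower to the upper quartile, the black line is the median and whiskers run between the 5% and 95% points; the organelle median lies between 0 and the cytosolic one in the SPT line, at -1.58 against -2.21.

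Cell type markers differed between the same zones. In SPT the summed level of 2 meristem markers (PLT1 and PLT2) was 92.3 FPKM in Proximal and 4.61 in Distal cells, while CASP1 of the endodermis went from 1.33 to 173 and APL of the phloem from 0.667 to 19.1 FPKM. The 7 xylem markers summed to 34.3, 711 and 403 FPKM, of which XCP2 held 2.78, 648 and 368 FPKM. From Proximal to Distal the authors' deposited table has 2 of the 7 rising and 3 falling, where 25.8% and 24.1% of genes tested did. Of 2 root cap markers NAC070 went from 5.33 to 233 FPKM and SMB from 67.8 to 75.5, and GL2 of the epidermis went from 7.36 to 2.58. From Proximal to Distal of PUB25 the meristem markers summed to 87.1 and 19.7 FPKM and the xylem markers to 44.4 and 179. All 7 xylem markers rose by the authors' deposited table, where 20% of genes tested rose. GL2 went from 4.72 to 20.7 FPKM there, CASP1 from 2.0 to 8.02, NAC070 from 45.3 to 229 and SMB from 129 to 47.3, and APL reached at most 0.299. In the line labelled xylem, TMO5 itself stood at 481, 354 and 240 FPKM, and the 7 xylem markers summed to 1139, 731 and 989 FPKM. The meristem markers summed to 131, 156 and 142 FPKM there, with PLT1 at 126, 148 and 137 and PLT2 at 4.91, 7.83 and 4.47. NAC070 stood at 17.3, 15.5 and 8.61 FPKM in this line, CASP1 at 4.42, 6.45 and 3.77, and SMB reached at most 0.454. GL2 reached at most 0.544 FPKM, and APL was listed at 0. The part of cell makeup in the result was not tested. A single row, AT2G01021, held 57.2% to 77.8% of summed FPKM in the 9 values.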

How the data were processed

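Per the labels, RNA of sorted root protoplasts was extracted with the RNeasy micro kit, and NuGEN Ovation ultralow chemistry was used for libraries. The submitters' processing notes name Bowtie, TopHat, Cufflinks, Cuffdiff and the TAIR10 build, with no versions, roles or order. The authors deposited FPKM, 1 value for each gene and zone, and how libraries were combined is not given in the sources used here. For every zone pair the authors also deposited their own log2 fold, in 1 table per line. The same table holds the q value of the authors' own test, and rows with a q value of exactly 1 were counted as not tested.

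From the deposited FPKM, differences of log2(FPKM + 1) were computed with a pseudocount of 1, for genes averaging 1 FPKM or more over the zones of a line. Differences of 2-fold or more were counted without a test, and calls use q below 0.05. The planned limma test needs 1 value per library and could not be fitted. Members are printed with the symbol of RefSeq where it has one. Loci are those deposited, and promoters were read from the RefSeq TAIR10.1 genome. Named members are the 6 of highest mean, the largest changes in each direction and zone pair (5 for Distal against Proximal, 2 for the others, called ones first), members of known role fixed by symbol, and those against the majority direction. The 29 members, the lists and the markers were chosen with earlier results of these data known. Others named were chosen after their values were seen.

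Alternatives were a pseudocount of 0.1, other filters on low values (none, or 5 FPKM), quantile normalization, median centring, q below 0.01, only titles naming an organelle, and leaving out names at several loci. Only the fold calculation was checked on simulated data, in which changes well past 2-fold had been put in. The other steps were not tested in this way. Python 3.11.15, numpy 2.4.6, pandas 2.3.3 and matplotlib 3.10.9 were used.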

Additional observations from a re-analysis of the deposited data

Results flagged for a closer look

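AT3G59650, a mitochondrial L51/S25 family protein gene, was called in opposite directions by the authors' deposited table between Proximal and Distal cells of 2 lines. It rose by 0.72 on the log2(FPKM + 1) scale in PUB25 and changed by -2.59 in SPT, a gap of 3.31. That difference between the lines was not tested. Its deposited locus also covers the coding gene AT3G59660.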

How the results depend on the processing

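Of 306 recomputed values over 45 results 36 moved. A change of direction could be scored for medians only, and no median changed sign. A count was scored as moved only where it went to or from 0 or changed by more than a fixed factor, so smaller shifts are not among the 36. With a pseudocount of 0.1, the members at least 2-fold lower became 2 in PUB25 Distal against Proximal, 1 in Medial against Proximal, 1 in Distal against Medial and 1 in TMO5 Medial against Proximal, and those 2-fold higher became 2 in SPT Distal and 2 in SPT Medial against Proximal. At a q value below 0.01, the authors' calls became 1 fall in PUB25 Medial against Proximal, 1 rise and 0 falls in PUB25 Distal against Medial, 9 falls in SPT Medial against Proximal and 1 fall in SPT Distal against Medial. With a 5 FPKM filter, and with quantile normalization, the 1 member 2-fold higher in TMO5 Distal against Medial became 0. Shifts not scored as moved included SPT Distal against Proximal, where falls called went from 19 to 14 at a q value below 0.01. Members 2-fold lower there went from 21 to 17 with the 5 FPKM filter and to 23 with quantile normalization.

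Counting only the 10 titles that name an organelle leaves fewer members. In PUB25, falls called became 0 in each pair and members 2-fold lower in Distal against Proximal became 0. In SPT, falls called became 9, 7 and 2 in Distal against Proximal, Medial against Proximal and Distal against Medial, members 2-fold lower became 8, 7 and 3, and members 2-fold higher became 0 and 0 in the first 2 pairs. In TMO5 Distal against Medial, members 2-fold higher became 0.

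Without the 12 members at shared loci, chosen after the data were seen, 17 remained. In PUB25 Distal against Proximal, rises called became 0, falls called 1 and members 2-fold lower 0, and falls called in Medial against Proximal became 1. In SPT, members 2-fold lower became 12, 9 and 1 in the same order of pairs, members 2-fold higher became 0 and 0 in the first 2, and falls called in Distal against Medial became 2. The SPT falls called in Distal against Proximal went from 19 to 13, which was not scored as moved. Quantile normalization put the median of all genes at -0.10 in TMO5 Distal against Proximal, and took it from -0.04 to -0.15 in Distal against Medial.

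No paired analysis was possible because the files give 1 value per zone and not per library, and for the same reason leaving out a replicate was not run. Depth is unknown, so no limit of detection is given.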
